A study of Mus musculus with 12 samples.

Results

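The genes described here are 55 genes whose transcripts are known to peak in G2 and mitosis of cycling cells, among them the mitotic cyclins, the spindle kinases and the kinetochore proteins. They were taken by symbol from a list of mitotic genes, with no threshold on their values here, and all 55 were found in the deposited table of 16234 genes and passed the filter on low counts that left 12208 genes to test. RNA was sequenced from bone marrow-derived mast cells (BMMCs), which are mast cells grown from mouse marrow in IL-3 and SCF, in 12 libraries that form 6 groups of 2. By label the cells were *Elk4* wild type (WT), *Elk4* heterozygous (HZ) and *Elk4* knockout (KO), each untreated (called resting) or stimulated through the IgE receptor FcϵRI. All came from littermates of a conventional *Elk4* knockout line on a C57BL/6N background, 6 to 12 weeks old and of both sexes, cultured for 4 to 8 weeks until over 80% of cells carried both CD117 and FcϵRI. Stimulated cells took up 0.5 µg/ml of anti-DNP IgE overnight and then received 100 ng/ml of DNP-HSA antigen for 1 h, and whether resting cells had been given IgE is not stated. Nothing in the labels says that the libraries of a group came from separate mice or cultures, so p-values measure only the spread between these libraries, which may be technical. The knockout was present in every cell of the mice, the marrow precursors included.

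*Elk4*, the ETS factor targeted in these mice, was measured first as a check of the labels. Its normalized read count (CPM, counts scaled to a common library size with TMM factors) was 73.2 and 78.3 CPM in the resting WT libraries, 93.2 and 86.0 CPM for resting HZ and 69.7 and 63.5 CPM for resting KO. After stimulation the values were 78.2 and 67.0 CPM for WT, 65.2 and 63.7 CPM for HZ and 67.1 and 68.5 CPM for KO. Resting KO was lower than resting WT by a log2 fold change of -0.19 (SE 0.06, adjusted p = 0.00872 by edgeR), and resting HZ was higher by 0.24 (SE 0.06, adjusted p = 0.000484 by edgeR). *Elk4* reads therefore did not follow the genotype labels. Where in the gene the deletion lies is not given in the sources used here, and a count over the whole gene need not show it, so WT, HZ and KO below always mean libraries labelled so. Counts on genes totalled 29697958 to 35531667 per library, of which the 55 genes took 0.205% to 0.555%.

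Entry into mitosis depends on the kinase CDK1, which is active only when bound to cyclin A or cyclin B and released from inhibitory phosphates by CDC25 phosphatases. The kinases PLK1, Aurora A and Aurora B then drive spindle assembly and chromosome alignment, while the checkpoint kinases BUB1 and TTK hold back the anaphase-promoting complex, a ubiquitin ligase that works with CDC20 and UBE2C, until every kinetochore is attached. Most of these genes are transcribed in a burst late in the cycle, when FOXM1 and MYBL2 replace repressor complexes on their promoters, and their RNA is scarce in cells that rest in G1. BMMCs divide in culture under IL-3 and SCF, so a bulk sample holds a mixture of dividing and resting cells. A lower level can therefore mean fewer cells in G2 and mitosis or less RNA per such cell, and these data cannot tell them apart.

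The summed level of the 55 genes was highest in resting WT, at 4913 and 4943 CPM. It was about 2268 and 2249 CPM in resting HZ and 2560 and 2520 CPM in resting KO. After antigen it was 4080 and 4062 CPM in WT, 3498 and 3452 CPM in HZ and 2270 and 2280 CPM in KO. The 2 libraries of a group lay close together in every group, and the median coefficient of variation between replicates over the genes and groups was 3.53%. The most variable value was *Cdc25c* in stimulated KO, with a coefficient of variation of 39.9%. Of the 55 genes, 50 had their highest group mean in resting WT and 4 in stimulated WT, the other one being *Anp32e*, which was highest in stimulated HZ, while the lowest mean lay in stimulated KO for 28 genes, in resting HZ for 22 and in resting KO for 5. The commonest order of the 6 group means, seen in 16 genes, ran from resting WT through stimulated WT, stimulated HZ, resting HZ and resting KO to stimulated KO. On the length-corrected FPKM scale, *Tubb4b*, a tubulin of the spindle, had the highest mean in resting WT (182 FPKM) and *G2e3*, a ubiquitin ligase, the lowest (3.01 FPKM). The median of the group means was 19.9 FPKM in resting WT, 7.26 in resting HZ and 7.04 in resting KO.

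**Figure D1:**
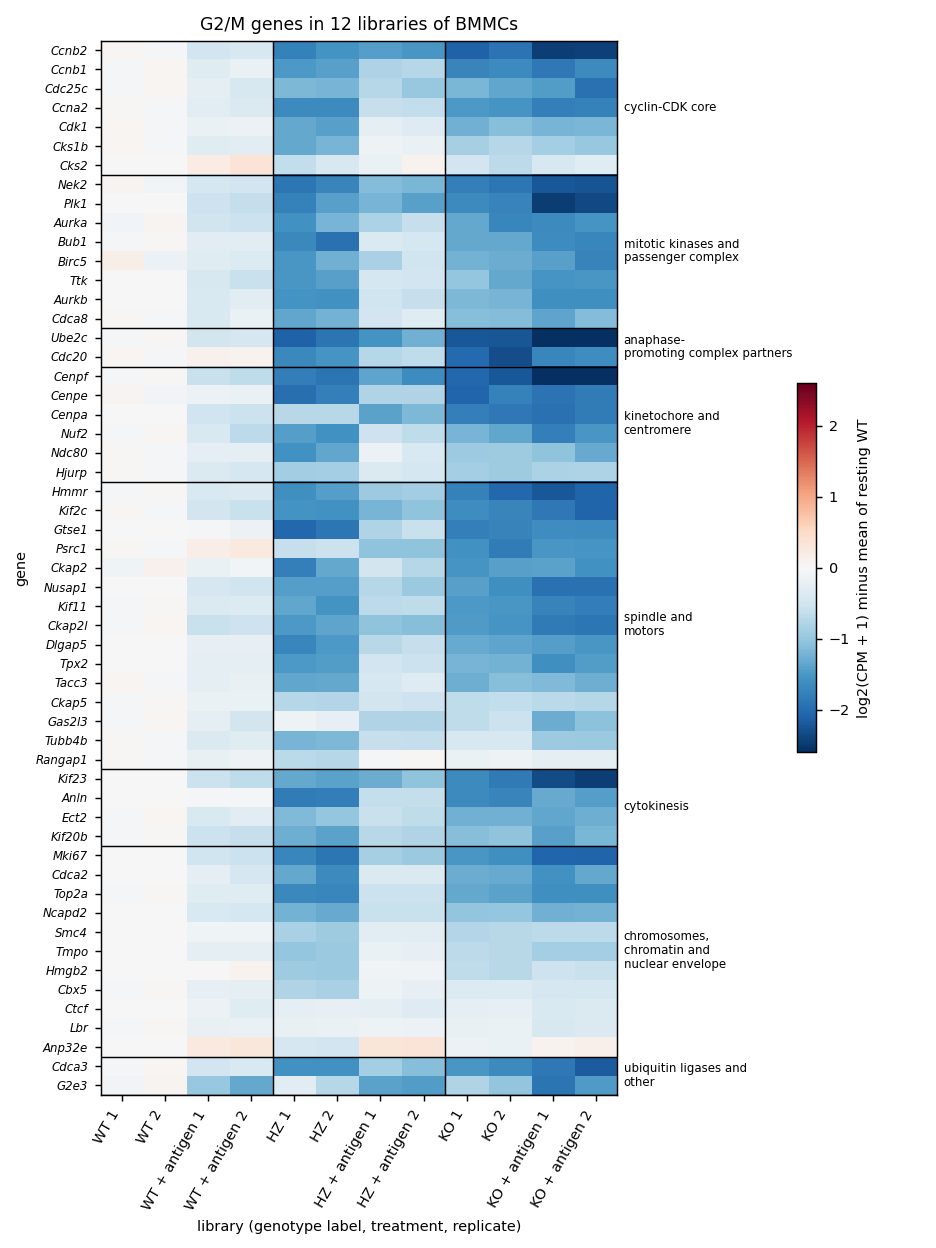
Level of each of the 55 G2/M genes (rows, grouped by role) in each of the 12 libraries (columns, by genotype label and treatment), as log2(CPM + 1) minus the mean of the 2 resting WT libraries. Blue marks lower and red marks higher levels. Nearly all rows are blue in the resting HZ and KO columns, the stimulated HZ columns are paler than the resting HZ columns, and the stimulated KO columns are darkest for 28 genes.

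The first question was whether mitotic genes differ between *Elk4* genotypes in resting culture. The test was edgeR's quasi-likelihood test on the counts, with p-values adjusted by Benjamini-Hochberg over all 12208 genes, and a gene is called lower or higher only at an adjusted p below 0.05. In resting KO BMMCs all 55 genes were lower than in resting WT BMMCs, against 21.7% of all genes tested, and 39 of them were lower by at least 2-fold (4.87% of all genes). The median log2 fold change was -1.37 over the 55 genes and 0.02 over all genes. In all 55 genes both KO libraries lay below both WT libraries, which held for 33.9% of all genes tested. All 55 genes passed under every alternative setting and with any one library left out.

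The largest differences were in the partners of the anaphase-promoting complex. *Ube2c*, the ubiquitin-conjugating enzyme of the complex, had 52.0 and 53.7 CPM in resting WT, 11.5 and 13.3 CPM in resting HZ and 10.7 and 10.5 CPM in resting KO. Its level in KO was 4.98-fold below WT, a log2 fold change of -2.32 (SE 0.10, adjusted p = 1.2e-24 by edgeR). The WT libraries stood far above the others, and the HZ and KO libraries lay close together. *Cdc20*, the activator that lets the complex take up cyclin B and securin, had 44.2 and 40.9 CPM in resting WT, 12.6 and 14.1 CPM in resting HZ and 9.73 and 7.81 CPM in resting KO. It was 4.84-fold lower in KO than in WT (-2.28, SE 0.10, adjusted p = 7.37e-25 by edgeR), and here the KO libraries were also below both HZ libraries.

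In the cyclin-CDK core all 7 genes were lower in resting KO, with a median log2 fold change of -1.54. *Ccnb2*, a mitotic B-type cyclin, stood at 48.8 and 46.1 CPM in resting WT, 13.3 and 15.4 CPM in resting HZ and 10.2 and 11.72 CPM in resting KO, a log2 fold change of -2.11 (SE 0.10, adjusted p = 7.52e-24 by edgeR). *Ccnb1*, the essential B-type cyclin, stood at 47.9 and 51.4 CPM in resting WT, 17.1 and 18.0 CPM in resting HZ and 14.5 and 15.1 CPM in resting KO and differed by -1.75 (SE 0.08, adjusted p = 1.43e-22 by edgeR). Both B cyclins had no overlap between the WT libraries and those of the other genotypes. *Ccna2*, which activates CDK1 and CDK2, differed by -1.54 (SE 0.06, adjusted p = 1.21e-26 by edgeR), and *Cdc25c*, a phosphatase that activates CDK1, by -1.58 (SE 0.22, adjusted p = 6.31e-08 by edgeR). *Cdk1* itself had 53.9 and 50.6 CPM in resting WT, 20.1 and 18.95 CPM in resting HZ and 21.3 and 23.6 CPM in resting KO, which is 2.33-fold lower in KO than in WT (-1.22, SE 0.07, adjusted p = 5.52e-19 by edgeR). The small CDK subunits changed least in this group, with log2 fold changes of -0.84 for *Cks1b* and -0.60 for *Cks2*.

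Of the mitotic kinases and the chromosomal passenger complex, all 8 were lower in resting KO, from -1.91 to -1.16 on the log2 scale. *Nek2*, a kinase of the centrosome, differed by -1.91, *Plk1* by -1.79, *Aurka* by -1.64 and *Aurkb*, the kinase of the passenger complex, by -1.24. *Birc5*, which encodes the passenger protein survivin, differed by -1.33, and the checkpoint kinases *Bub1* and *Ttk* by -1.39 and -1.29. Adjusted p-values by edgeR ranged from 4.3e-22 for *Nek2* to 1.87e-10 for *Ttk*. Of the kinetochore and centromere genes all 6 were lower. *Cenpf*, a large protein of the outer kinetochore, had 64.8 and 68.1 CPM in resting WT, 18.3 and 17.0 CPM in resting HZ and 15.5 and 13.7 CPM in resting KO, a log2 fold change in KO of -2.19 (SE 0.09, adjusted p = 5.77e-26 by edgeR), and the motor *Cenpe* differed by -1.97. *Hjurp*, the chaperone that loads the centromeric histone CENP-A, differed least among them (-0.91).

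All 15 spindle and motor genes were lower, with a median of -1.53. *Hmmr*, a protein of the spindle poles, stood at 44.5 and 46.5 CPM in resting WT, 14.5 and 16.2 CPM in resting HZ and 12.7 and 10.3 CPM in resting KO and differed by -1.99 (SE 0.09, adjusted p = 5.58e-23 by edgeR). At the other end of this group were *Tubb4b* (-0.41) and *Rangap1*, the GTPase-activating protein of the Ran cycle (-0.16), both of which also serve cells outside mitosis. The cytokinesis genes were all 4 lower, *Kif23*, the motor of the central spindle, by -1.80 and *Anln*, the scaffold of the contractile ring, by -1.76. Among the 11 genes for chromosomes, chromatin and the nuclear envelope the median was -0.70, the smallest of the 8 roles in both KO and HZ. *Top2a*, the topoisomerase that separates sister chromatids, had 332 and 343 CPM in resting WT, 105 and 103 CPM in resting HZ and 133 and 129 CPM in resting KO, 2.58-fold lower in KO than in WT. *Mki67*, the proliferation antigen Ki-67, had 479.5 and 488 CPM in resting WT, 149 and 131 CPM in resting HZ and 169 and 159 CPM in resting KO, 2.95-fold lower in KO. In the same group *Anp32e* (-0.16), *Lbr* (-0.18) and *Ctcf* (-0.23), which encode a histone chaperone, a lamin receptor and a chromatin insulator factor used throughout the cycle, were lower by small amounts that passed the test.

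**Figure D2:**
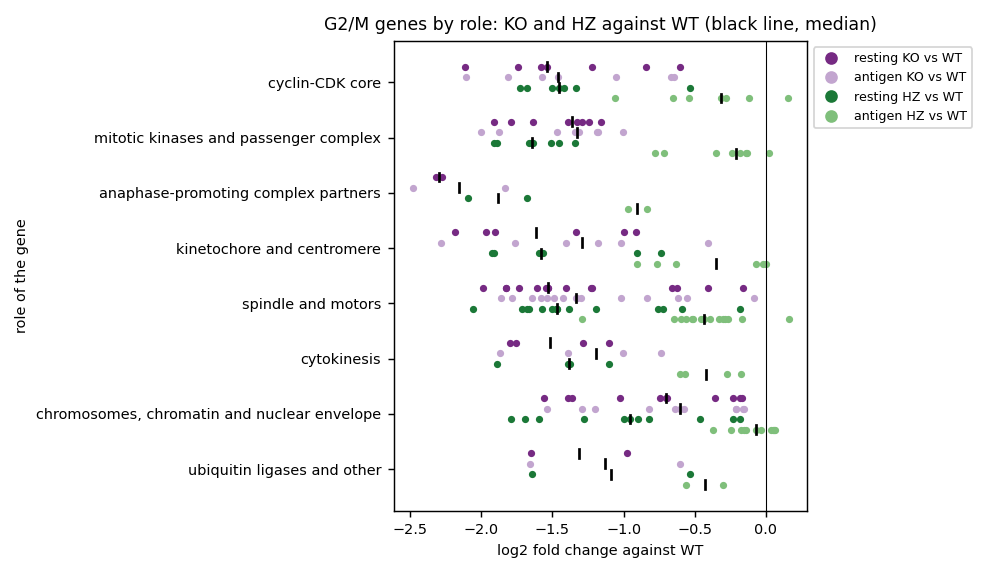
Log2 fold change of each gene (points) against WT, by role, in KO and HZ BMMCs at rest and after antigen (groups by label). Black lines are the median of each role. All points of resting KO, stimulated KO and resting HZ lie left of 0, with the median of the chromatin role closest to it, and in stimulated HZ the median of every role lies nearer to 0 than in resting HZ.

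Resting HZ BMMCs, which by label keep 1 copy of the gene, were also low in mitotic genes. All 55 genes were lower in resting HZ than in resting WT (26% of all genes tested were), 40 of them by at least 2-fold (5.32% of all genes). No HZ library reached a WT library in any of the 55 genes, which held for 36.6% of all genes. The median difference was -1.47 on the log2 scale, where all genes had a median of 0.0018. *Ube2c* again differed most (-2.09, SE 0.10, adjusted p = 2.53e-23 by edgeR). It was followed by *Gtse1*, a microtubule-associated protein of G2, with 47.4 and 46.0 CPM in resting WT, 10.5 and 11.9 CPM in resting HZ and 12.96 and 13.4 CPM in resting KO and a log2 fold change of -2.06 (SE 0.09, adjusted p = 1.66e-24 by edgeR). Next were *Cenpe* (-1.93), *Cenpf* (-1.91) and *Bub1* (-1.91). The smallest differences were in *Lbr* (-0.18) and in *Gas2l3*, which links actin to microtubules in cytokinesis (-0.18). Of the genes followed singly, *Gas2l3* lost its call without resting WT replicate 2 (-0.13) or resting HZ replicate 2 (-0.15), and *G2e3* (-0.54) without resting HZ replicate 2 (-0.33).

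Mast cell markers, 10 of 11 listed in the table, had a high summed level in all groups. It was 46581 to 57250 CPM, the highest values being those of resting HZ (55814 to 57250 CPM). Most of this sum was *Cpa3*, *Cma1* and *Tpsb2*, and single markers differed. *Mcpt4* stood at 18.2 to 52.8 CPM over all libraries. *Hdc* stood at 131 and 122 CPM in resting WT, 114 and 104 CPM in resting HZ and 16.9 and 17.1 CPM in resting KO. After antigen *Hdc* was at 1116 and 1106 CPM in WT, 440 and 432 CPM in HZ and 316 and 290 CPM in KO. Some defining markers of other cells stayed near 0 in every library, among them *S100a8*, *S100a9* and *Mrc1*, each at most 0.0576 CPM. Summed macrophage and monocyte markers, 8 of 8 in the table, were 47.9 to 50.3 CPM in resting WT, 92.7 to 94.5 in resting HZ and 115 to 119 in resting KO. Summed neutrophil and precursor markers, 5 of 7 in the table, were 305 to 307 CPM in resting WT, 42.0 to 43.9 in resting HZ and 19.9 to 22.1 in resting KO. In these lists *F13a1*, a factor of monocytes, stood at 0.996 and 1.66 CPM in resting WT, 56.5 and 56.7 CPM in resting HZ and 59.1 and 59.2 CPM in resting KO. *Cd68*, a lysosomal protein of macrophages, stood at 41.3 and 36.9 CPM in resting WT, 20.7 and 20.3 CPM in resting HZ and 40.7 and 43.9 CPM in resting KO, so that it was lower in HZ while the sum was higher. *Ctsg*, a granule protease, stood at 305 and 307 CPM in resting WT, 41.8 and 43.9 CPM in resting HZ and 19.9 and 22.04 CPM in resting KO. It made up nearly all of the neutrophil and precursor sum, the other markers of that list being at most 0.2015 CPM in any library. Summed progenitor markers, 3 of 3 in the table, were 1923 to 2010 CPM in resting WT, 1617 to 1649 in resting HZ and 1527 to 1576 in resting KO. Summed erythroid and megakaryocyte markers, 5 of 5 in the table, were 1696 to 1739 CPM in resting WT, 2413 to 2421 in resting HZ and 1695 to 1701 in resting KO, and summed basophil markers, 4 of 4, were 667 to 672, 747 to 753 and 527 to 539 CPM. The erythroid and megakaryocyte sum was nearly all *Itga2b*, the other markers being at most 0.372 CPM in any library. The basophil sum was mostly *Cd200r3*, while *Mcpt8* and *Prss34*, both at low levels, were higher in resting KO than in resting WT. The part of these markers in the G2/M differences was not tested. As far as the labels say, each genotype may rest on 1 culture, so genotype and culture cannot be told apart.

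Because so many of these genes moved together, their promoters were read for the motifs known to bind late cell-cycle factors. RefSeq promoters of GRCm38.p6 were matched for 48 of the 55 genes, giving 53 promoters, 5 genes having more than 1, and the 250 bases before the start were searched on both strands. The cell cycle genes homology region, searched as TTTGAA or TTCGAA, was in 23 of 53 promoters (43.4%), against 12.7% of 12526 promoters of genes tested and 17.1% of all 32851 promoters in the table. The NF-Y box CCAAT was in 40 of 53 (75.5%), against 35.4% and 33.8%. Both were in 20 of 53 (37.7%), against 4.98% and 6.02%. The ETS core CCGGAA, the kind of site that *Elk4* binds, was in 13 of 53 (24.5%), against 21.8% of promoters of genes tested and 12.03% of all promoters. TTCGAA and the pair TTCCGG and CCGGAA can share bases with a neighbouring motif, and such matches were counted for each. A match is a description and not a binding site, and the promoters come from another build than GRCm39, on which the submitters' processing notes place the reads.

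The 150 bases before the start are printed for 5 of the genes with the largest differences and for *G2e3*, whose response is set apart later. Capitals mark the NF-Y box CCAAT and the homology region TTTGAA, either of them on its opposite strand as ATTGG or TTCAAA.
Ccnb2 (chr9:70421555-70421704, minus strand): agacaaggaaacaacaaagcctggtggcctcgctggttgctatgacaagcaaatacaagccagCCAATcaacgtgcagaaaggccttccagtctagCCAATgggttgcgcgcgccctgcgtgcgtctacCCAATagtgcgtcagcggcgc
Cdc20 (chr4:118437344-118437493, minus strand): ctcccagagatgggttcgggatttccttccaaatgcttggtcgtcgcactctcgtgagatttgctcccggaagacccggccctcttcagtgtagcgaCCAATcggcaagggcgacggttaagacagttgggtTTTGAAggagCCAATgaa
Ube2c (chr2:164769779-164769928, plus strand): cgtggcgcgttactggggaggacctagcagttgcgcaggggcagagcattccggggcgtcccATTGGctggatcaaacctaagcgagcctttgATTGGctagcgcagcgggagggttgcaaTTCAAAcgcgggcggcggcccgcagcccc
Plk1 (chr7:122159285-122159434, plus strand): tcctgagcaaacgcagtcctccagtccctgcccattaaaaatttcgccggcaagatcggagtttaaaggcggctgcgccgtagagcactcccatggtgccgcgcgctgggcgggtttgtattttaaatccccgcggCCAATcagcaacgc
Cenpf (chr1:189688087-189688236, minus strand): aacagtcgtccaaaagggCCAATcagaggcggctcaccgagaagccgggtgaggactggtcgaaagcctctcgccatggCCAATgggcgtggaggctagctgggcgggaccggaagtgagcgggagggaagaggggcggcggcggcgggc
G2e3 (chr12:51348080-51348229, plus strand): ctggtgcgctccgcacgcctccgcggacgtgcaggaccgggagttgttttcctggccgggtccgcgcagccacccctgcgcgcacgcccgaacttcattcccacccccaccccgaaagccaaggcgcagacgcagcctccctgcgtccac

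*Ccnb2* holds 3 NF-Y boxes in this stretch and no homology region, though its 250 bases hold 1. *Cdc20* and *Ube2c* hold 2 boxes and 1 homology region each, *Cenpf* 2 boxes and *Plk1* 1 box. *G2e3* holds none of these letters in this stretch, nor in its 250 bases.

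The next question was how these genes differed after 1 h of antigen in each genotype. The labels do not say whether resting and stimulated libraries of a genotype shared a culture, so treatment and culture cannot be told apart. In WT BMMCs 44 of the 55 genes were lower after antigen and 3 were higher, against 22.9% lower and 22.4% higher among all genes tested. The changes were small, with a median log2 fold change of -0.34 and 1 gene past 2-fold (3.06% of all genes were lower and 3.71% higher by that much). That gene was *G2e3*, with 17.0 and 19.2 CPM in resting WT and 8.58 and 6.58 CPM in stimulated WT and a log2 fold change of -1.25 (SE 0.15, adjusted p = 2.31e-09 by edgeR). The next were *Cenpf* (-0.63), *Kif23* (-0.63), *Kif20b*, a motor of the midbody (-0.60), and *Plk1* (-0.59). *Plk1* fell from 35.2 and 34.3 to 23.7 and 22.4 CPM, with no overlap (-0.59, SE 0.10, adjusted p = 5.02e-06 by edgeR). *Ccnb2* fell by 0.47 on the log2 scale, *Ube2c* by 0.46, *Ccna2* by 0.34, *Ccnb1* by 0.25 and *Cdk1* by 0.17. All 8 kinase and passenger genes were lower, from -0.59 to -0.28.

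The 3 higher genes in WT were *Cks2*, the CDK subunit, by 0.28 (SE 0.07, adjusted p = 0.00188 by edgeR), *Anp32e* by 0.27 (SE 0.04, adjusted p = 3.5e-08 by edgeR) and *Psrc1*, a spindle protein, by 0.22 (SE 0.06, adjusted p = 0.00489 by edgeR). Their direction depends on the scaling, since with library totals alone they stood at -0.031, -0.038 and -0.090. Scaling by library totals moved the median of all genes by -0.31 in the WT response, -0.23 in the HZ response and -0.29 in the KO response, and 52 of the 55 genes were then lower in WT and none higher (60.6% and 6.9% of all genes). Relative to the median of all genes, that of the 55 genes was -0.33 with TMM factors. With any one library left out, 40 or 41 of the 47 called genes still passed. Among the genes named, *Cdk1* did not pass without any one of the 4 WT libraries (-0.12 to -0.20), and *Ccnb1* did not without resting replicate 2 or stimulated replicate 1 (both -0.18). The same held for *Bub1* without resting replicate 2 (-0.25), *Birc5* without resting replicate 1 (-0.19) or stimulated replicate 2 (-0.33), *Cks2* without stimulated replicate 2 (0.20), *Psrc1* without resting replicate 2 (0.20) or stimulated replicate 2 (0.17), and *Cks1b* without resting replicate 1 (-0.27).

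In HZ BMMCs the same stimulus went with higher levels of these genes. After antigen 47 of the 55 genes were higher and 4 lower, against 32.9% and 31.6% of all genes tested, and 13 were higher by at least 2-fold (7.02% of all genes). The median response was 0.71 on the log2 scale, where all genes had a median of -0.0048. In 50 genes both stimulated libraries lay above both resting ones (40.1% of all genes). *Bub1* rose most, from 10.3 and 8.31 to 26.6 and 25.3 CPM (1.48, SE 0.10, adjusted p = 1.6e-17 by edgeR), which put it close to the 28.4 and 28.5 CPM of stimulated WT. *Cdk1* rose from 20.1 and 18.95 to 43.9 and 41.4 CPM (1.13, SE 0.08, adjusted p = 1.35e-17 by edgeR) and *Top2a* from 105 and 103 to 229 and 229 CPM (1.13, SE 0.04, adjusted p = 3.54e-30 by edgeR). *Ccna2* rose by 1.05, *Aurkb* by 1.07, *Ttk* by 1.13, *Ndc80*, a subunit of the complex that holds microtubules, by 1.32, and *Gtse1* by 1.36. Every one of these had both stimulated libraries above both resting libraries.

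The rise was uneven within the cyclin and kinase groups. *Ccnb1* rose by 0.71, but *Ccnb2* had 13.3 and 15.4 CPM in resting HZ and 16.9 and 15.9 CPM in stimulated HZ and did not pass (0.19, SE 0.10, adjusted p = 0.0848 by edgeR), with a value of -0.037 under library totals alone. *Plk1* rose by 0.30, *Cenpf* by 0.38 and *Kif23* by 0.20, while *Cdc25c*, *Lbr* and *Ctcf* did not pass (0.42, 0.04 and -0.07). These small rises did not hold throughout. *Plk1* did not pass without resting HZ replicate 1 (0.11) or stimulated HZ replicate 1 (0.18), nor *Cenpf* without stimulated HZ replicate 1 (0.23), and *Kif23* did not without resting replicate 1 (0.23), resting replicate 2 (0.17) or stimulated replicate 2 (0.07). *Kif23* was also at -0.036 with library totals alone, under which 41 of the 55 genes were higher and 6 lower (20% and 48.3% of all genes).

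The 4 genes lower in stimulated HZ were *G2e3*, *Gas2l3*, *Cenpa*, which encodes the centromeric histone, and *Psrc1*. *G2e3* had 14.5 and 10.4 CPM in resting HZ and 6.31 and 5.99 CPM in stimulated HZ and a log2 fold change of -1.02 (SE 0.16, adjusted p = 3.04e-07 by edgeR), past 2-fold as in WT (7.28% of all genes were). *Cenpa* fell from 27.3 and 27.2 to 16.6 and 19.8 CPM (-0.59, SE 0.09, adjusted p = 1.97e-07 by edgeR). *Gas2l3* fell from 50.7 and 47.7 to 32.0 and 32.1 CPM (-0.62, SE 0.08, adjusted p = 8.2e-10 by edgeR), and *Psrc1* from 42.6 and 43.6 to 30.9 and 30.8 CPM (-0.48, SE 0.07, adjusted p = 8.83e-08 by edgeR). In all 4 the resting and stimulated libraries did not overlap. The share of all genes with this in the lower direction is not given here, and in the higher direction it was 40.1%. Summed erythroid and megakaryocyte markers also moved with this comparison, from 2413 to 2421 CPM in resting HZ down to 1511 to 1536 CPM in stimulated HZ, as did summed basophil markers, from 747 to 753 down to 531 to 540 CPM, while summed mast cell markers were 48914 to 49664 CPM in stimulated HZ. The first of these falls was that of *Itga2b*. The basophil fall was mostly that of *Cd200r3*, from 667 and 666 to 454 and 461 CPM. *Mcpt8*, alone in the basophil list, rose, from 5.41 and 6.34 to 11.0 and 10.7 CPM. Summed macrophage and monocyte markers were 92.7 to 94.5 CPM in resting HZ and 95.9 to 97.1 CPM in stimulated HZ, but single genes moved apart. *F13a1* fell from 56.5 and 56.7 to 23.0 and 26.3 CPM, and *Cd68* rose from 20.7 and 20.3 to 56.6 and 54.3 CPM. In KO *F13a1* stood at 59.1 and 59.2 CPM at rest and 56.1 and 59.8 CPM after antigen. The part of all these markers in the HZ response was not tested.

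**Figure D3:**
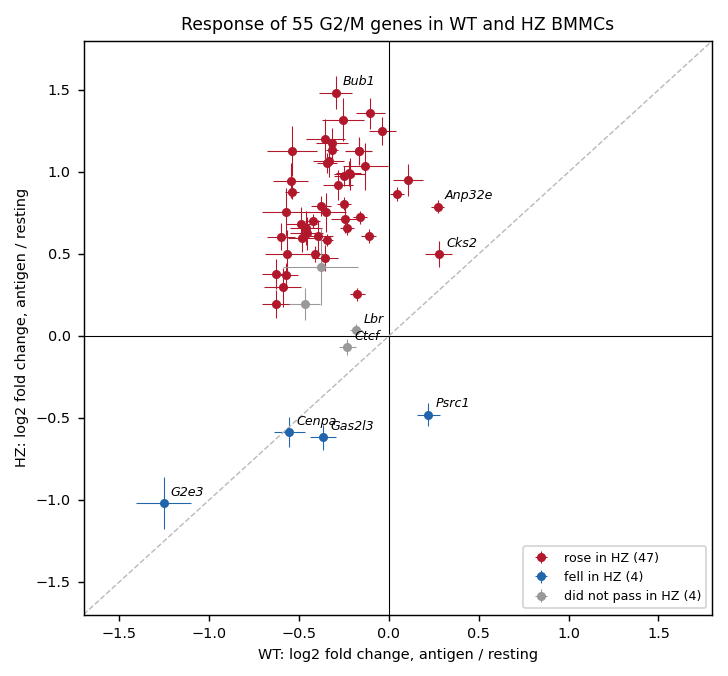
Response of the 55 genes to 1 h of antigen in WT (x axis) and HZ (y axis), as log2 fold change with TMM scaling, with standard errors. Colours give the call in HZ, and the dashed line marks equal responses. Most points lie at upper left, lower in WT and higher in HZ, with G2e3, Cenpa, Gas2l3 and Ctcf below 0 on both axes, though Ctcf did not pass in HZ. Of the genes that passed, Cks2, Anp32e and Psrc1 in WT and Kif23 in HZ change sign with library totals alone, as do 2 genes in each of WT and HZ that did not pass.

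In KO BMMCs 29 of the 55 genes were lower after antigen and 5 higher, against 20.5% and 20.4% of all genes tested, and none of them passed 2-fold (2.88% of all genes were lower and 3.73% higher by that much). The median log2 fold change was -0.22. *Plk1* had 10.3 and 9.75 CPM in resting KO and 5.46 and 6.05 CPM in stimulated KO, a fall of 0.80 on the log2 scale (SE 0.13, adjusted p = 2.09e-06 by edgeR). *G2e3* fell from 10.1 and 8.31 to 4.13 and 5.84 CPM (-0.88, SE 0.17, adjusted p = 2.91e-05 by edgeR). *Cenpf* differed by -0.73, *Kif23* by -0.69, *Ube2c* by -0.63, *Mki67* by -0.52 and *Ccnb2* by -0.46. *Cdc20* went the other way, from 9.73 and 7.81 to 12.4 and 13.3 CPM (0.55, SE 0.11, adjusted p = 4.52e-05 by edgeR). *Anln* (0.33), *Anp32e* (0.28), *Cks2* (0.24) and *Hmgb2*, a chromatin protein (0.13), were also higher, but with library totals alone *Anp32e*, *Cks2* and *Hmgb2* stood at -0.013, -0.050 and -0.15, and 48 genes were lower and 1 higher (59.8% and 7.03% of all genes). *Anln* lost its call without stimulated KO replicate 1 (0.27), *Cks2* without resting KO replicate 2 (0.15) or stimulated KO replicate 2 (0.18), and *Hmgb2* without resting KO replicate 2 (0.10) or stimulated KO replicate 1 (0.11).

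Read across genotypes, 38 genes were lower after antigen in WT and higher in HZ, and 24 of those were also lower in KO. The shares of all genes tested with such joint patterns were not counted. Taken singly, 22.9% of all genes were lower in WT, 32.9% higher in HZ and 20.5% lower in KO. Only *G2e3* and *Gas2l3* were lower in all 3 genotypes, and *Anp32e* and *Cks2* were higher in all 3 with TMM scaling, though not in WT or KO with library totals alone. Across the 55 genes, which are not independent of each other, the WT and KO responses had a Pearson r of 0.80 and a Spearman rho of 0.77, while over all genes tested these were 0.76 and 0.65. Between the WT and HZ responses they were 0.33 and 0.36, against 0.70 and 0.57 over all genes.

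The differences between responses were tested in the same model. The response in HZ was higher than that in WT in 49 of the 55 genes and lower in 1, against 19.9% and 18.6% of all genes tested, with a median difference of 1.08 on the log2 scale and 32 genes past a 2-fold difference (3.96% of all genes). *Bub1* had the largest difference, 1.78 (SE 0.14, adjusted p = 3.16e-15 by edgeR), and *Psrc1* was the one with a lower response, -0.70 (SE 0.10, adjusted p = 5.18e-08 by edgeR). *G2e3* (0.24) and *Cenpa* (-0.03) did not pass. The response in KO differed from that in WT in 7 genes, 6 of them higher and 1 lower, against 5.44% and 3.83% of all genes tested. The 6 were *Cenpa* (0.50), *Hjurp* (0.50), *Cdc20* (0.44), *Anln* (0.37), *Kif20b* (0.37) and the condensin subunit *Ncapd2* (0.20), and the lower one was *Tubb4b* (-0.21). This count was 7 with all libraries, fell to 2 without stimulated WT replicate 2 or resting KO replicate 2, to 3 without resting WT replicate 2 or stimulated KO replicate 2, and to 4 without resting or stimulated WT replicate 1. Of the 7, *Hjurp* alone passed with any library left out.

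**Figure D4:**
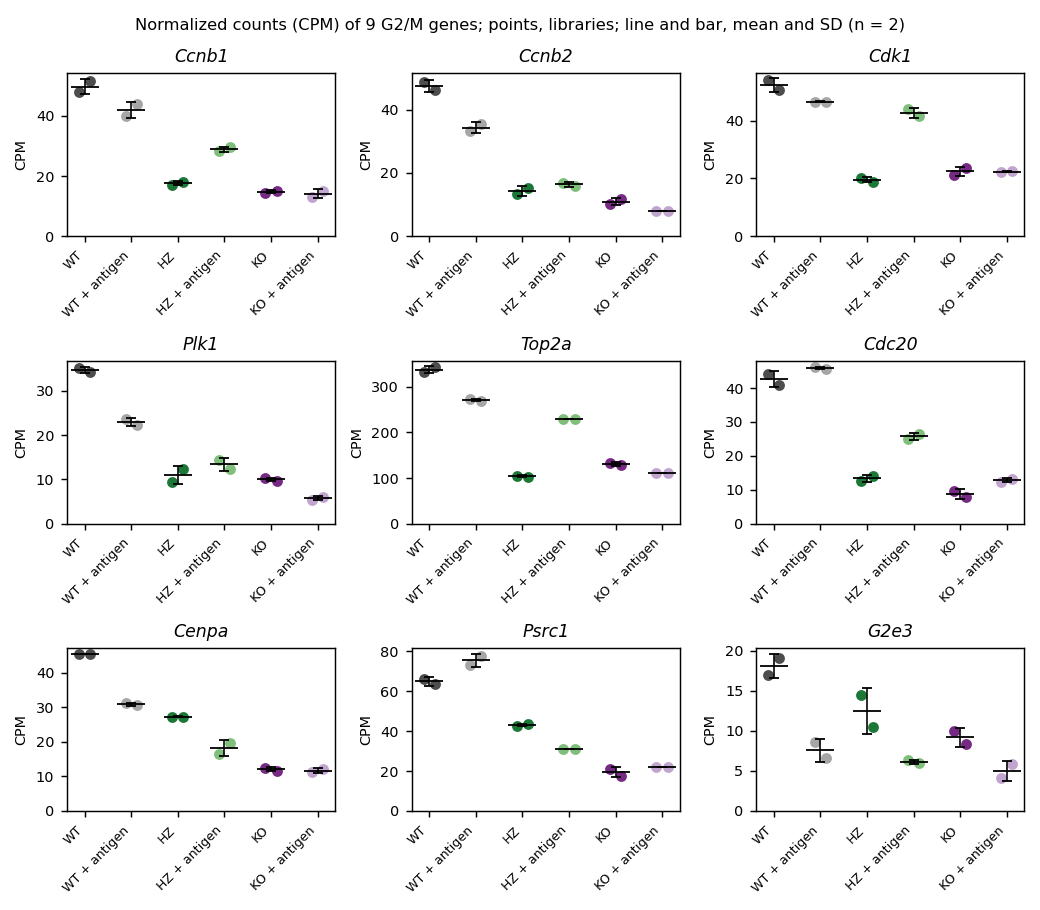
CPM of 9 G2/M genes in each library (points), with the mean and SD of each group (line and bar, n = 2), by genotype label and treatment. Ccnb1, Cdk1, Top2a and Cdc20 are higher in stimulated than in resting HZ, Ccnb2 and Plk1 stay near their resting HZ level, and Cenpa, Psrc1 and G2e3 are lower in stimulated HZ. Resting KO lies far below resting WT in all 9.

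After antigen the KO and WT groups stayed apart while HZ came near WT. In stimulated KO 54 of the 55 genes were lower than in stimulated WT (19.2% of all genes tested), 47 of them by at least 1.5-fold (7.32% of all genes), with a median log2 fold change of -1.30. *Rangap1* was the gene that did not pass (-0.09, SE 0.04, adjusted p = 0.0909 by edgeR). In all 55 both KO libraries lay below both WT libraries (31.6% of all genes). *Ube2c* had 37.9 and 38.8 CPM in stimulated WT and 7.66 and 6.08 CPM in stimulated KO and differed by -2.48 (SE 0.11, adjusted p = 8.12e-24 by edgeR). *Cenpf* (-2.28), *Ccnb2* (-2.11), *Plk1* (-1.999) and *Nek2* (-1.87) followed. *G2e3* (-0.60) lost its call without stimulated WT replicate 1 (-0.40) or stimulated KO replicate 1 (-0.38), and *Ctcf* (-0.16) without stimulated WT replicate 1 (-0.08) or stimulated KO replicate 1 (-0.15). The KO to WT differences at rest and after antigen rest on separate libraries, but those of a genotype may share a culture. Across the 55 genes, which are not independent of each other, these differences had a Pearson r and a Spearman rho of 0.95. Over all genes tested the values were 0.74 and 0.64.

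In stimulated HZ 36 genes were lower than in stimulated WT and 1 was higher, against 16.5% and 18.4% of all genes tested, and 13 were lower by 1.5-fold (4.45% of all genes). Both HZ libraries lay below both WT libraries in 42 genes (29.8% of all genes). The median was -0.30, where it had been -1.47 at rest. *Psrc1* differed most, with 73.2 and 77.7 CPM in stimulated WT and 30.9 and 30.8 CPM in stimulated HZ and a log2 fold change of -1.29 (SE 0.07, adjusted p = 1.48e-20 by edgeR), followed by *Ccnb2* (-1.06), *Ube2c* (-0.97) and *Cenpf* (-0.91). *Bub1* (-0.13), *Cdk1* (-0.12), *Ttk* (0.02) and *Hjurp* (0.0018) did not pass, and *Rangap1* was higher by 0.16. Stimulated KO was below stimulated HZ in 53 genes (12% of all genes tested), 40 of them by 1.5-fold (3.6% of all genes), with a median of -0.98. In all 55 genes the libraries of these groups did not overlap (29.4% of all genes).

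At rest the sum of these genes was higher in both KO libraries (2560 and 2520 CPM) than in both HZ libraries (2268 and 2249 CPM), but single genes lay on either side. Resting KO was lower than resting HZ in 10 genes and higher in 18, against 21.8% and 23.4% of all genes tested, and the median log2 fold change was 0.10. Relative to all genes this median fell to 0.039 without resting HZ replicate 1. The 2 genes past 2-fold were both lower in KO (2.06% of all genes were, and 1.29% were higher). *Cenpa* had 45.3 and 45.4 CPM in resting WT, 27.3 and 27.2 CPM in resting HZ and 12.5 and 11.70 CPM in resting KO, so that HZ lay between WT and KO without overlap, and KO differed from HZ by -1.17 (SE 0.09, adjusted p = 8.42e-15 by edgeR). *Psrc1* had 66.3 and 63.4 CPM in resting WT, 42.6 and 43.6 CPM in resting HZ and 21.2 and 17.8 CPM in resting KO, again in steps, and differed by -1.14 (SE 0.07, adjusted p = 7.23e-18 by edgeR). *Cdc20* (-0.60, SE 0.11, adjusted p = 5.61e-06 by edgeR), *Gas2l3* (-0.44), *Kif23* (-0.41) and *Hmmr* (-0.41) were also lower in KO. *Ccnb2* (-0.39), *Ccnb1* (-0.25), *Cenpf* (-0.27) and *G2e3* (-0.44) completed the 10.

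Among the 18 genes higher in resting KO, *Tubb4b* differed most, with 112 and 115 CPM in resting HZ and 196 and 195 CPM in resting KO and 0.79 (SE 0.04, adjusted p = 1.21e-22 by edgeR). *Ndc80* (0.59), *Rangap1* (0.56), *Bub1* (0.52), *Cks1b* (0.49) and *Cbx5*, the heterochromatin protein HP1 alpha (0.46), were next. By role, 8 of the 11 chromatin genes were higher in KO and none lower, while the cyclin-CDK core had 2 of 7 in each direction. Several calls rest on single libraries. Without resting KO replicate 2, *Hmmr* (-0.27), *G2e3* (-0.31), *Cenpf* (-0.19) and *Cdk1* (0.13) did not pass, and without resting KO replicate 1, *Ccnb1* (-0.21) and *Ccnb2* (-0.29) did not. Without resting HZ replicate 1 the same held for *Cenpf* (-0.22) and *G2e3* (-0.18), and without resting HZ replicate 2 for *Ccnb1* (-0.20), *Ccnb2* (-0.27) and *Cdk1* (0.17).

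**Figure D5:**
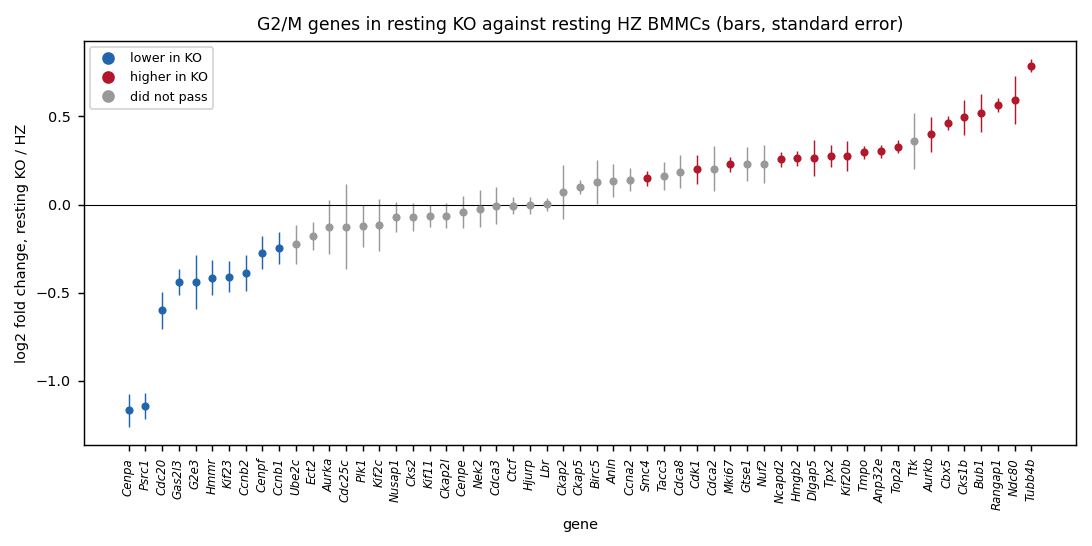
Log2 fold change of the 55 genes between resting KO and resting HZ BMMCs (by label), in order of size, with standard errors. Colours give the edgeR call. Cenpa and Psrc1 stand apart below -1, and Tubb4b lies highest at 0.79.

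Other genes of the pathway were followed in lists drawn up from textbook roles. Of 61 further mitotic genes, 56 were lower and 1 higher in resting KO, with a median log2 fold change of -1.14, and 58 were lower and 1 higher in resting HZ (-1.44). Beside this and the lists that follow, the shares of all genes tested were 21.7% lower and 22.9% higher in resting KO, 26% and 25.4% in resting HZ, 22.9% and 22.4% in the WT response and 31.6% and 32.9% in the HZ response. *Aspm*, a spindle pole protein, differed most in KO (-2.63, SE 0.09, adjusted p = 4.92e-28 by edgeR), and *Pttg1*, which encodes securin, was the one higher gene (0.70, SE 0.10, adjusted p = 2.02e-07 by edgeR). After antigen 35 of these 61 were lower and 3 higher in WT, and 54 were higher and none lower in HZ. In WT *Sgo1*, a protector of cohesion (-0.89), and *Fbxo5*, an inhibitor of the anaphase-promoting complex (-0.87), fell most, while *Zwint*, a kinetochore protein, rose (0.70).

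The core subunits and activators of the anaphase-promoting complex, unlike its partners *Cdc20* and *Ube2c*, showed small differences. Of 15, 5 were lower and 3 higher in resting KO, with a median log2 fold change of 0.03. The lowest was *Fzr1*, the activator of the complex in G1 (-0.37). After antigen in WT, 10 were lower, *Anapc7* (-0.69) and *Cdc23* (-0.60) the most, and none was higher.

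Of 22 regulators of late cell-cycle transcription, 15 were lower and 2 higher in resting KO, and 14 were lower and 2 higher in resting HZ. *Foxm1*, the activator of many of the 55 genes, differed by -1.44 (SE 0.07, adjusted p = 3.62e-22 by edgeR) in KO and by -1.56 in HZ. The repressor *E2f7* (-1.07) and the activator *E2f2* (-1.03) were also lower in KO, while *E2f5*, a factor of repressor complexes (0.80), and *Rbbp4* (0.22) were higher. After antigen *Foxm1* was lower in WT (-0.34) and higher in HZ (0.88, SE 0.08, adjusted p = 3.38e-14 by edgeR). *E2f7* moved likewise, by -0.40 in WT and 1.28 in HZ.

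Of the 16 gates of the G2 to M transition, 15 were tested, and 6 were lower and 1 higher in resting KO. *Cdc25b*, the phosphatase that starts CDK1 activation, differed most (-2.17, SE 0.12, adjusted p = 3.24e-20 by edgeR), followed by *Pkmyt1*, an inhibitory kinase of CDK1 (-0.71), and *Chek1*, the checkpoint kinase (-0.55). *Cdkn1b*, which encodes the CDK inhibitor p27, was higher by 0.17 in resting KO and by 0.85 in resting HZ. After antigen some gates differed from rest far more than the 55 genes did. In WT *Gadd45b*, a stress protein that can inhibit CDK1, rose by 3.26 (SE 0.09, adjusted p = 5.34e-33 by edgeR), *Cdkn1a*, which encodes p21, rose by 1.49 and *Cdkn1b* differed by -1.53 (SE 0.07, adjusted p = 1.82e-23 by edgeR). In HZ *Cdkn1b* differed by -2.32 after antigen and *Cdkn1a* by 1.84.

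S-phase genes, the neighbours of these genes in the cycle, gave a different contrast between HZ and KO. Of 43, 30 were lower than WT in resting KO with a median log2 fold change of -0.35, and 37 were lower in resting HZ with a median of -0.91, while the medians of the 55 G2/M genes were -1.37 and -1.47. Of all genes tested 21.7% were lower in KO and 26% in HZ. Resting KO was higher than resting HZ in 38 of the 43 and lower in 1, with a median of 0.56, where that of the G2/M genes was 0.10 and 23.4% and 21.8% of all genes were higher and lower. After antigen 39 of the 43 were higher in HZ and none was lower, with a median of 1.11, and stimulated HZ was above stimulated WT in 30 of them and below it in 1 (18.4% and 16.5% of all genes). Whether S-phase and G2/M genes differ in these contrasts was not tested.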

How the data were processed

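Total RNA of 12 BMMC samples was sequenced, 2 libraries for each genotype label and treatment. Per the submitters' processing notes, reads were handled with fastp, HISAT2 and HTSeq on GRCm39, and versions and counting options are not given in the sources used here. The authors deposited raw counts per gene and FPKM, which correct counts for gene length and library size, in tables of 16234 genes. In 172 of them every library was at 0. Sex-linked genes are not analysed here.

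Groups were taken from the labels. All 12 libraries were fitted in 1 model with a mean per group by edgeR 4.0.16 in R 4.3.3 (quasi-likelihood test, two-sided, TMM factors, default filter on low counts, 12208 genes left, 6 residual degrees of freedom, Benjamini-Hochberg adjustment over all genes tested). The common dispersion gave a coefficient of biological variation of 4.01%. Totals of 29697958 to 35531667 counts and 33 to 17078 counts per G2/M gene and library set the precision, and CPM use TMM-scaled library sizes, with fitted values at a prior count of 0.125. A fold of 2, or 1.5 between stimulated genotypes, was counted in addition. Alternatives were DESeq2 1.42.0, limma 3.58.1 on log2(FPKM + 1) and log2(FPKM + 0.1), library totals or RLE factors in place of TMM, no filter or at least 10 counts in every library, an adjusted p below 0.01, only the groups compared, a replicate block and leaving out each library. Promoters were RefSeq sequences of GRCm38.p6.

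The 55 genes, the roles, the lists and the rule for named genes (15 core genes, the 5 largest changes per direction in the main comparisons and the 3 largest per pathway list) were chosen with earlier results of these data known. Genes named beyond that rule, among them those of the HZ response, of the comparison of resting KO with resting HZ and of the differences between responses, were chosen after their values were seen.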

Additional observations from a re-analysis of the deposited data

Results flagged for a closer look

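The response to antigen differed between genotype labels in a test of the difference itself, edgeR's interaction term with adjustment over all genes tested, and values here are the response in HZ or KO minus the response in WT on the log2 scale. Between HZ and WT, 49 of the 55 genes had a higher response in HZ and 1, *Psrc1* (-0.70), a lower one, against 19.9% and 18.6% of all genes tested. In the cyclin-CDK core and among the partners of the anaphase-promoting complex the differences were 1.40 for *Ccna2*, 1.30 for *Cdk1*, 0.96 for *Ccnb1*, 0.66 for *Ccnb2*, 0.80 for *Cdc25c*, 1.49 for *Cks1b*, 0.84 for *Cdc20* and 1.12 for *Ube2c*. For the mitotic kinases and survivin they were 1.33 for *Aurka*, 1.40 for *Aurkb*, 1.10 for *Birc5*, 1.78 for *Bub1*, 1.67 for *Ttk*, 0.89 for *Plk1* and 1.17 for *Nek2*. For kinetochore and centromere genes they were 1.57 for *Ndc80*, 1.30 for *Cenpe*, 1.01 for *Cenpf* and 0.91 for *Hjurp*. Spindle and cytokinesis genes gave 1.46 for *Gtse1*, 1.01 for *Hmmr*, 0.93 for *Tubb4b*, 0.88 for *Rangap1*, 1.29 for *Anln*, 1.20 for *Kif20b* and 0.82 for *Kif23*. Chromatin and envelope genes gave 1.45 for *Top2a*, 1.42 for *Mki67*, 1.13 for *Ncapd2*, 0.89 for *Cbx5*, 0.82 for *Hmgb2*, 0.52 for *Anp32e* and 0.22 for *Lbr*. Of these genes *Cdc25c* lost its call without either resting WT library, stimulated WT replicate 2, either resting HZ library or stimulated HZ replicate 1 (0.64 to 0.85).

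Between KO and WT, 6 genes had a higher response in KO and 1 a lower one. These were 10.9% and 1.82% of the genes described here, against 5.44% and 3.83% of all genes tested. The differences were 0.50 for *Cenpa*, 0.50 for *Hjurp*, 0.44 for *Cdc20*, 0.37 for *Anln*, 0.37 for *Kif20b*, 0.20 for *Ncapd2* and -0.21 for *Tubb4b*, and of these *Hjurp* alone passed with any one library left out.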

How the results depend on the processing

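The direction of each comparison's median held under all settings and with any library left out, and all 55 genes passed in resting KO against resting WT throughout. Medians here are those of the 55 genes minus that of all genes, on the log2 scale. With limma on log2(FPKM + 1), limma without the filter and limma on log2(FPKM + 0.1), they moved as follows where they moved by more than the replicate spread. The WT response went from -0.33 to -0.34 and -0.47, and was -0.34 without the count filter. The HZ response went from 0.72 to 0.62, 0.47 and 0.69, and the KO response from -0.22 to -0.16 and -0.28. Resting KO against WT went from -1.38 to -1.20, -1.20 and -1.35, and resting HZ against WT from -1.47 to -1.29, -1.33 and -1.46. Stimulated KO against WT went from -1.32 to -1.07 and -1.06, stimulated HZ against WT from -0.32 to -0.29, -0.25 and -0.31 (-0.30 without the count filter), and stimulated KO against HZ from -0.97 to -0.76 and -0.78. The difference between the KO and WT responses went from 0.10 to 0.15 and 0.16, and that between HZ and WT from 1.07 to 0.94 and 1.00. The cause was not tested.

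Leaving out each library in turn gave medians from -0.33 to -0.30 in the WT response, 0.67 to 0.76 in the HZ response, -0.22 to -0.18 in the KO response, -1.42 to -1.35 and -1.51 to -1.46 in resting KO and HZ against WT, 0.039 to 0.12 in resting KO against HZ, -1.34 to -1.31, -0.34 to -0.30 and -0.96 to -0.86 in the 3 comparisons of stimulated genotypes, and 0.08 to 0.10 and 1.03 to 1.08 in the differences of the KO and HZ responses from WT. The count of genes whose response differed between KO and WT, 7, was 3 at an adjusted p below 0.01, 4 with DESeq2 and 3 with limma on log2(FPKM + 0.1). It was 2 to 5 with a library left out, with the lowest count, 2, without stimulated WT replicate 2 or resting KO replicate 2.

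With library totals alone the sign changed for 5 genes in the WT response, 3 in the HZ response and 8 in the KO response, and for 4 in resting KO against HZ, 1 in stimulated HZ against WT, 2 in the difference between KO and WT and 1 in that between HZ and WT. Of these, 3, 1 and 3 in the responses had passed with TMM factors and none in the other comparisons. The genes followed singly that turned and passed under one of the scalings are given next. They also turned with the 3 limma fits, which use FPKM without TMM factors and in which *Cdc20* and *Cenpe* did not pass. In the WT response these were *Cks2* (-0.031 with totals and -0.033 with limma), *Anp32e* (-0.038 in all), *Psrc1* (-0.090 with totals and -0.088 to -0.090 with limma), *Hmgb2* (-0.27 with totals and -0.26 to -0.27 with limma) and *Cdc20* (-0.20). In the HZ response they were *Kif23* (-0.036 with totals and -0.033 to -0.037 with limma) and *Lbr* (-0.19). In the KO response they were *Cks2* (-0.050 with totals and -0.047 to -0.048 with limma), *Anp32e* (-0.013 in all), *Hmgb2* (-0.15), *Hjurp* (-0.20 with totals and -0.18 to -0.19 with limma) and *Cenpe* (-0.25). In the 100 bases before the start, a window shorter by construction, the homology region was in 26.4% of the promoters against 3.80% of those of genes tested, and with CCAAT in 22.6% against 0.998%. CCGGAA was in 13.2% against 13.9%, below that share where it had been above it in 250 bases (24.5% against 21.8%).

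The labels number the libraries of each group 1 and 2 and do not say what a number stands for. Same-numbered resting and stimulated libraries did not deviate together (Pearson r over 9858 genes of -0.030 in WT, 0.070 in HZ and -0.011 in KO). With the replicate number as a block, 47 genes passed in the WT response, 51 in HZ and 33 in KO against 34 without the block. With it 29 genes passed in resting KO against HZ against 28 without, and 51 in the difference between HZ and WT against 50 without, the counts of the other comparisons being equal. With 2 libraries per group the spread of each gene rests mostly on that shared over all genes. Low counts limit *Cdc25c* and *Ttk* most.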
